A study of Mus musculus with 15 samples.

Results

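Nppa, Nppb, Gja5, Irx3, Cited1, Sema3a, Kcne1 and Cpne5 are genes used as markers of the trabecular myocardium of the embryonic heart. They were taken by symbol, 8 genes of the 78317 in the count tables, and all 8 had enough counts to be tested. Their messenger RNA was measured by RNA-seq in hearts of C57BL/6 mouse embryos at E11.5, in a study that targeted Atf4 with 2 different alleles. The sample titles name heart and the design text names ventricle, and the tissue is taken as ventricle below. Groups are called CDS and PAS after the labels. In the CDS line loxP sites flank exons 2 and 3 of Atf4 and leave its polyadenylation signal (PAS) in place, and in the PAS line they flank that signal itself. To make knockouts, both lines were bred with Xmlc2-Cre, which is active in heart muscle cells, so other cells of the ventricle were not targeted. There were 4 CDS knockout, 4 CDS control, 4 PAS knockout and 3 PAS control libraries. The labels call the control animals only "Control", and whether these carried the floxed alleles or Cre is not given in the sources used here.

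Trabeculae are the sheets and ridges of muscle that grow inward from the ventricular wall, while the outer wall forms the compact layer. Their growth depends on signals between endocardium and muscle, among them Notch, neuregulin with its ErbB receptors, BMP10 and the extracellular matrix between the layers. Trabecular muscle conducts quickly and divides less than compact muscle, and much of the later ventricular conduction system derives from it. The marker genes reflect this: they code for natriuretic peptides, a fast gap junction protein, a potassium channel subunit and transcription regulators.

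Library totals lay between 22623499 and 46472141 counts, and every CDS library was deeper than every PAS library. Atf4 stood at 44.5 ± 3.56 normalised CPM in CDS knockouts and 114 ± 1.99 in CDS controls (SD, n = 4 each). In PAS knockouts Atf4 was higher, not lower, at 286 ± 18.8 CPM (SD, n = 4) against 97.1 ± 4.27 in PAS controls (SD, n = 3), so PAS knockout below means the libraries so labelled. Ventricular muscle markers were present everywhere, with the myosin light chain gene Myl2 between 3810 and 5220 CPM. Of 8 atrial markers, Myl4 lay between 2070 and 2680 CPM, Myl7 between 703 and 1210, Bmp10 between 246 and 343 and Dkk3 between 95 and 148 CPM. Nr2f1, Nr2f2 and Stard10 were between 3.18 and 38.7 CPM, and Sln had 56 counts over all 15 libraries. Early ventricles also express some of these genes, and how much atrial tissue the samples held was not tested. The labels conflict on the preparation. The sample titles name heart, and the design text describes dissected ventricle and a poly(A) library kit. The extraction protocol describes neuron cultures and ribosomal RNA depletion. Of 6 neuronal markers, Tubb3 lay between 1.63 and 16.3 CPM and Map2 between 3.76 and 7.58 CPM, and the other 4 reached at most 2.08 CPM.

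In both lines the knockouts overlapped their controls for each of the trabecular markers, although single knockout libraries lay outside the control range. In CDS knockouts 0 of 8 passed the test (edgeR, Benjamini-Hochberg adjusted p under 0.05 over 20269 genes), where 0.0543% of all genes did, and in PAS knockouts 0 of 8 passed, where 0.00987% did. At an unadjusted p under 0.05 the CDS comparison held 1 of the 8 (Cited1) and 2.62% of all genes, and the PAS comparison held 0 of the 8 and 5.24% of all genes. DESeq2 and limma-voom called 0 of the 8 in either. The groups failed to overlap for 0 of the 8 genes in both comparisons. Over all genes that share was 2.8% in the CDS comparison and 4.59% in the PAS comparison, so 0 of 8 is near the background. Log2 changes ran from -0.14 to 0.17 in CDS knockouts, with 5 of 8 negative and a median of -0.04. They ran from -0.10 to 0.09 in PAS knockouts, with 6 of 8 negative and a median of -0.04. Over all genes the median was 0 in both, and 50.6% of changes were negative in each. The 95% intervals bound what could have been missed: in PAS knockouts they ran from 0.714-fold to 1.25-fold over the 8 genes, and in CDS knockouts from 0.794-fold to 1.19-fold over 7 of them, with Cpne5 reaching 1.44-fold. The 1 clear difference was between the lines: Nppb was lower in every PAS library than in any CDS library.

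**Figure D1:**
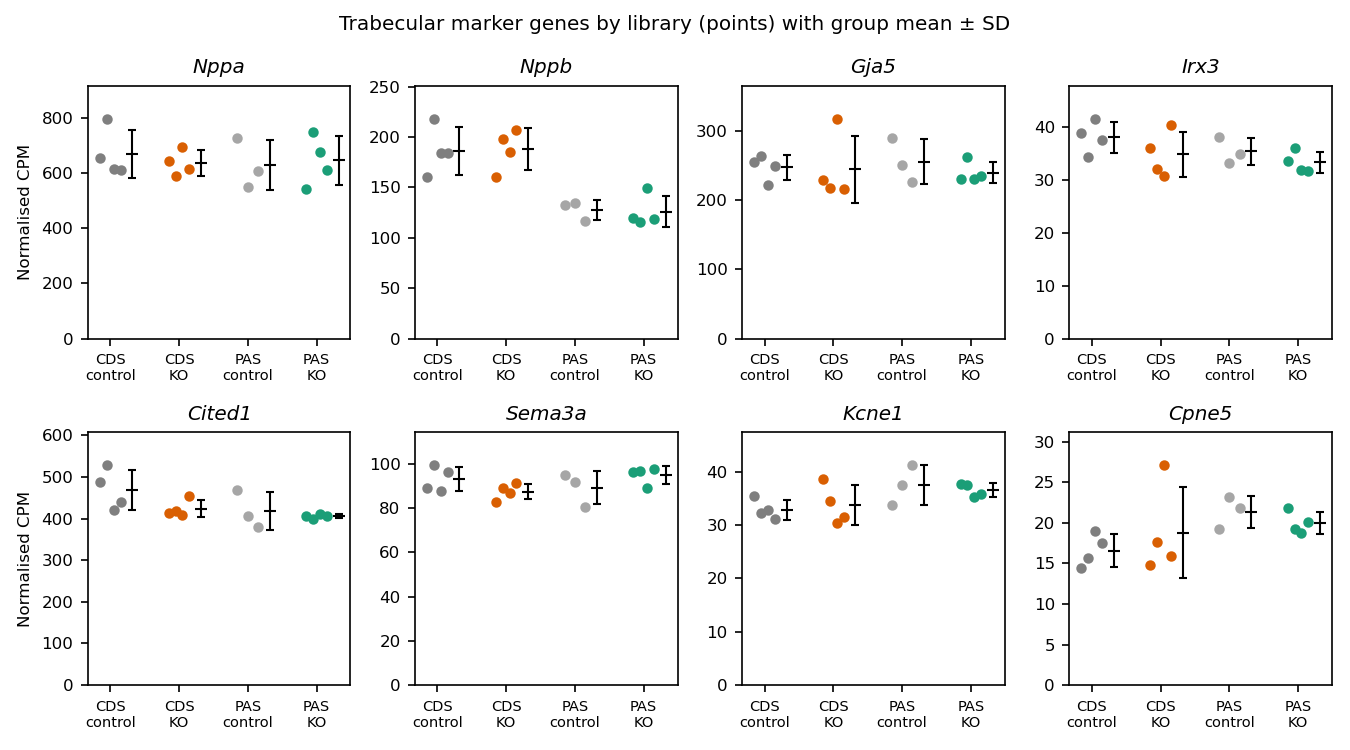
Normalised CPM of the 8 trabecular marker genes (vertical axis, from 0) in each library (points), by group on the horizontal axis, with the group mean and SD as bars. Knockouts and controls of a line overlap in every panel, and Nppb lies between 116 and 149 CPM in PAS libraries and between 160 and 218 CPM in CDS libraries.

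Levels were compared between genes per kilobase of exon (RPKM, mean over 15 libraries). Nppa was the highest at 745 RPKM, with Cited1 at 245 and Nppb at 204 RPKM. Gja5 followed at 42.9, Irx3 at 12.8, Kcne1 at 10.9, Sema3a at 6.59 and Cpne5 at 1.41 RPKM. The ranges over libraries of Cited1 (216 to 301 RPKM) and Nppb (149 to 279 RPKM) overlapped, as did those of Irx3 (11.1 to 15) and Kcne1 (9.45 to 12.8). Every other pair of neighbours in this order was separated in every library. In CDS knockouts Cited1 and Nppb were level, at 242 ± 11.8 and 240 ± 26.5 RPKM (SD, n = 4), whereas in PAS knockouts they stood at 231 ± 2.7 and 161 ± 19.4 RPKM (SD, n = 4). The RPKM of Nppa understates its level, since an antisense gene, Gm13054, covers 596 of its 865 exon bases (68.9%) and fragments lying in the shared bases are by default assigned to neither gene. With all its counts set against only the 269 bases that no other gene shares, Nppa came to 2400 RPKM. That is a rescaling by length, as fragments over those bases alone were not counted. Shared bases made up at most 5.1% of the exons of Gja5, Irx3, Kcne1 and Cpne5, and there were none in Nppb, Cited1 or Sema3a. In count terms Nppa ranked 144th and Cpne5 8209th of the 20269 tested genes by mean CPM.

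Nppa and Nppb code for the natriuretic peptides ANP and BNP, hormones of the heart that act on receptor guanylate cyclases. The genes lie side by side on the plus strand of chromosome 4 (GRCm39), Nppb (ENSMUSG00000029019.9) at 148070245 to 148071662 and Nppa (ENSMUSG00000041616.10) at 148085179 to 148086536, with 13.5 kb between them. Their start regions are shown because Nppb was called between the lines. They come from RefSeq on GRCm38.p6, plus strand, 250 bases before to 50 after the annotated start, chr4:148000472-148000771 for Nppa and chr4:147985650-147985949 for Nppb. Capitals mark the letters of the motifs named after them.
Nppa: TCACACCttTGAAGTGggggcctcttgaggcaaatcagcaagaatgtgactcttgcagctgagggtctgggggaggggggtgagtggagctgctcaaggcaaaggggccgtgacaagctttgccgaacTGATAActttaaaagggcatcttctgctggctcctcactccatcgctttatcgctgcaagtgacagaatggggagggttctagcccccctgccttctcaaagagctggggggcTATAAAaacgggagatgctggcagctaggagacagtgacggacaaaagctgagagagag
Nppb: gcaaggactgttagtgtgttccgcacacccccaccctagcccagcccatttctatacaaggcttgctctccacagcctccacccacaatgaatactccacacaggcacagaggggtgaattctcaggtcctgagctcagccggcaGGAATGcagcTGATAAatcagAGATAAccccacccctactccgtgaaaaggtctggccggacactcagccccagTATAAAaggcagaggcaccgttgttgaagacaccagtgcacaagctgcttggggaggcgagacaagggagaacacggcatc
Promoter windows were found for 7 of the 8 genes, 9 windows in all, and motifs were searched as letters on both strands. The GATA letters AGATAA or TGATAA stood in the windows of Nppa (first base at -122 from the start) and Nppb (at -95 and -84) and in 18.6% of all 32851 windows. TATAAA stood in those of Nppa, Nppb and Cited1 and in 13.6% of all windows. The T-box letters GGTGTGA (4% of all windows) and the NKX2-5 element TNAAGTG (11.5%) stood in the window of Nppa and of no other marker. The MCAT element CATTCC (14.7%) stood in that of Nppb, and the CArG box, the motif of serum response factor (1.6%), in that of Cited1. The composite element read by ATF4 with a partner, TGATGNAAN, was in 0 of the 9 windows and in 4% of all. The letters of a motif overlap with no other motif in the printed windows. A match is a run of letters and not a measured site.

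Nppa held 644, 588, 695 and 614 CPM in CDS knockouts 1 to 4 and 653, 795, 613 and 611 CPM in CDS controls 1 to 4. It held 542, 749, 677 and 611 CPM in PAS knockouts 1 to 4 and 726, 549 and 605 CPM in PAS controls 1 to 3. The groups lay over each other, with the highest value in CDS control 2 and the lowest in PAS knockout 1. Its log2 change was -0.07 ± 0.12 (SE) in CDS knockouts and 0.04 ± 0.13 in PAS knockouts (edgeR, adjusted p = 1 and 0.999).

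Nppb held 160, 198, 185 and 207 CPM in CDS knockouts and 160, 218, 184 and 184 CPM in CDS controls. In the PAS line it held 120, 116, 149 and 119 CPM in knockouts and 133, 135 and 117 CPM in controls. Within a line knockouts and controls overlapped, while between the lines they did not. Knockout against control gave log2 changes of 0.01 ± 0.11 (SE) for CDS and -0.03 ± 0.12 for PAS libraries (edgeR, adjusted p = 1 and 0.999).

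Averaged over knockouts and controls, Nppb in the PAS line was at 0.68 of its level in the CDS line, with a 95% interval from 0.601 to 0.77. The means were 127 ± 12.2 CPM (SD, n = 7) and 187 ± 20.7 CPM (SD, n = 8). The log2 difference was -0.56 ± 0.08 (SE; edgeR, adjusted p = 0.00367), a comparison added after Nppb had been seen to differ between the control groups. It passed in all 22 alternatives run for it, with values from -0.60 to -0.50 and a highest adjusted p of 0.0244. Of the 8 markers 1 was called lower in this comparison, as were 2.28% of all genes, and 0.819% of all genes were lower with no overlap of the lines. Between the knockout groups alone, a comparison that was also not planned, the difference was -0.58 ± 0.11 (SE) with an adjusted p of 0.0308 by edgeR. Nppb was thus called there, against a background of 0.888% of genes called lower. That call held in 14 of 23 alternatives. Among the 14 is every fit that left out a control library, which leaves both knockout groups whole. Of the fits without 1 knockout library, the call held only without CDS knockout 1 and without PAS knockout 3. It was lost when CDS knockout 2, 3 or 4 (edgeR, adjusted p = 0.111, 0.0706 and 0.0745) or PAS knockout 1, 2 or 4 (0.0758, 0.077 and 0.107) was left out, with log2 differences from -0.58 to -0.53. It was also lost without CDS knockouts 3 and 4 together (-0.51; edgeR, adjusted p = 0.274), with the atrial markers as a covariate (-0.52; 0.0702) and with only those groups fitted (-0.58; 0.0562), so the difference kept most of its size where the call was lost. Between the control groups it was -0.54 ± 0.12 (SE) and did not pass (edgeR, adjusted p = 0.154, with 0.143% of genes called), although DESeq2 called it (adjusted p = 0.000164) and all 3 PAS controls were below all 4 CDS controls, as for 5.16% of all genes.

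The lines also differed in depth, in the counting run named by the file headers and in markers of other tissues, and line, run and depth cannot be told apart. Summed atrial markers lay between 3710 and 4280 CPM over CDS libraries and between 3220 and 3940 CPM over PAS libraries. Of 8 atrial markers 7 were tested, and 1 was called lower in the PAS line, as were 2.28% of all genes. That was Myl4, an atrial light chain gene, with a log2 difference of -0.15 ± 0.03 (SE; edgeR, adjusted p = 0.0145). The log2 differences of the 7 ran from -0.19 to 0.02 with a median of -0.04, and 1 was positive. With the atrial markers as a covariate the difference of Nppb between the lines was -0.50 (edgeR, adjusted p = 0.0204). Summed markers of choroid plexus, liver and yolk sac were between 33.8 and 237 CPM over CDS libraries and between 15.2 and 27.7 CPM over PAS libraries, and Ttr was lower in every PAS library (log2 -6.48 ± 0.91, SE; edgeR, adjusted p = 0.00338). Of the 6 markers in this list 4 were tested. Between the lines 2 of them were called lower in PAS libraries, as were 2.28% of all genes, and 1 had a positive log2 difference, 0.24. Trf, also in the list, lay between 13.4 and 25.5 CPM over all libraries. Alb and Apoa1 held 8 and 74 counts over all libraries and were not tested. The highest sums, 164 and 237 CPM, were in CDS knockouts 3 and 4, and without that pair Nppb differed by -0.52 (edgeR, adjusted p = 0.0244). Summed erythroid markers lay between 1570 and 4270 CPM over CDS libraries and between 1140 and 3440 CPM over PAS libraries. The share of these sources in the difference of Nppb was not tested.

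No other tested gene near Nppb was called lower in the PAS line. Of 16 genes within 100 kb of the Nppb and Nppa pair 11 were tested, and Nppb and Plod1, a lysyl hydroxylase of collagen, were the 2 called between the lines. Plod1 was higher in the PAS line, at 0.13 ± 0.03 (log2, SE; edgeR, adjusted p = 0.0327). Nppa gave -0.04 ± 0.09, the mitochondrial fusion gene Mfn2 0.01 ± 0.03 and the chloride transporter gene Clcn6 0.02 ± 0.04 (log2, SE), none past the test. The antisense gene Gm13054 gave -0.34 ± 0.15 (SE; edgeR, adjusted p = 0.248) at a mean of 1.71 CPM. Per kilobase, Nppa exceeded Nppb by a ratio of 2.67 to 3.68 over the 8 CDS libraries and of 3.66 to 5.82 over the 7 PAS libraries, so that only PAS control 2, at 3.66, fell within the range of the CDS line. These ratios use all exon bases. Rescaled by length to the exon bases of Nppa that no other gene shares, they ran from 8.59 to 11.8 over the CDS and from 11.8 to 18.7 over the PAS libraries. They are given with no test, since they restate the difference of Nppb.

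**Figure D2:**
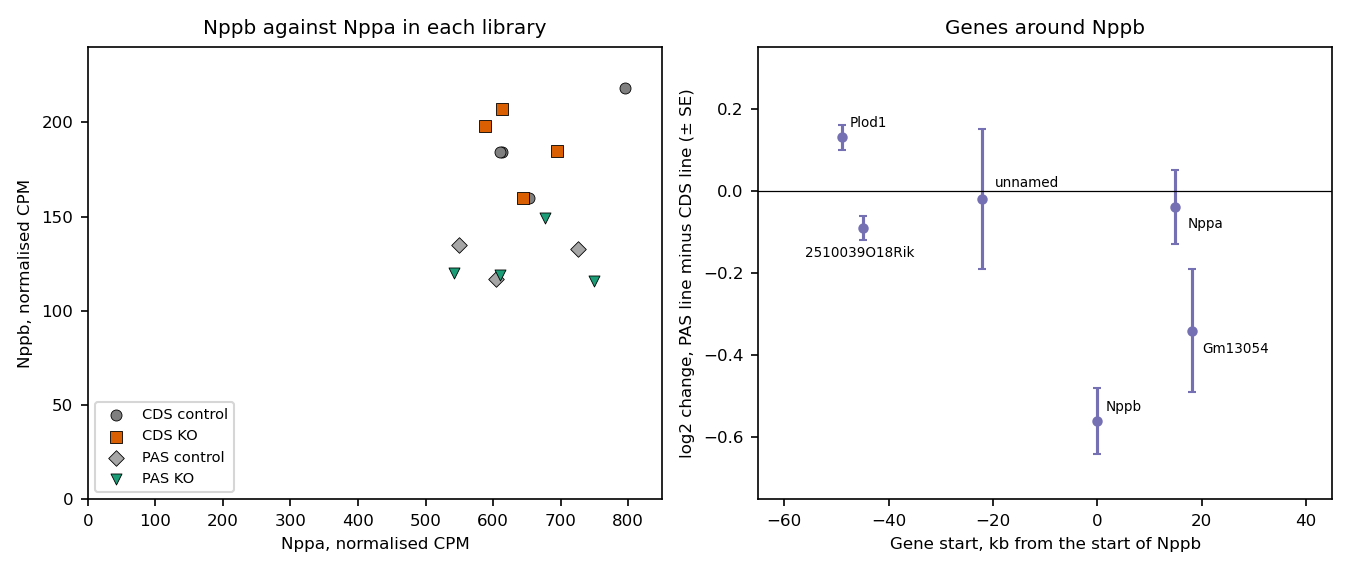
Left, normalised CPM of Nppb (vertical axis) against Nppa (horizontal axis) in each library, with a colour and symbol per group: the PAS line lies below 150 CPM of Nppb over the same range of Nppa. Right, log2 difference between the lines (PAS minus CDS, points, with SE bars) against the distance of each gene's start from the start of Nppb in kb, for tested genes that start within 50 kb and have a mean of at least 1 CPM: Nppb is at -0.56 and Nppa at -0.04.

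Gja5 codes for a gap junction protein of fast conduction, present in trabecular muscle, atria and arterial endothelium (ENSMUSG00000057123.15, GRCm39 chromosome 3, 96812009 to 96984732, plus strand). It held 229, 218, 318 and 216 CPM in CDS knockouts and 255, 265, 222 and 250 CPM in CDS controls. It held 231, 263, 231 and 235 CPM in PAS knockouts and 291, 251 and 226 CPM in PAS controls. CDS knockout 3 was the highest of all libraries, and the other CDS knockouts were among the 5 lowest. The log2 change was -0.01 ± 0.12 (SE) in CDS knockouts and -0.09 ± 0.13 in PAS knockouts (edgeR, adjusted p = 1 and 0.996). Without CDS knockout 3 the former was -0.16 (edgeR, adjusted p = 1). That library also had the highest sum of erythroid markers, 4270 CPM, and around group means Gja5 moved with that sum over the 15 libraries (r = 0.82). This was its largest correlation with a marker list and is no test, and how far it rests on CDS knockout 3 was not tested. Atrial markers gave r = 0.29 and arterial endothelial markers r = 0.26. The part of blood cells in its level was not tested.

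Kcne1 codes for a small subunit of the slow delayed potassium current and pairs with the channel made from Kcnq1 (ENSMUSG00000039639.8, GRCm39 chromosome 16, 92142870 to 92156356, minus strand). It held 38.7, 34.5, 30.4 and 31.5 CPM in CDS knockouts and 35.5, 32.2, 32.9 and 31.1 CPM in CDS controls. It held 37.8, 37.6, 35.3 and 35.9 CPM in PAS knockouts and 33.8, 37.5 and 41.2 CPM in PAS controls. Knockouts and controls overlapped in both lines, and most PAS libraries were above most CDS libraries. The log2 change was 0.04 ± 0.07 (SE) in CDS and -0.03 ± 0.08 in PAS knockouts, and the PAS line was higher than the CDS line by 0.15 ± 0.05, which did not pass (edgeR, adjusted p = 0.106). It passed with no filter on low counts (adjusted p = 0.0477) and without CDS knockout 1 (0.0304).

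Irx3 codes for a homeodomain transcription factor needed for fast conduction in the trabecular and Purkinje network (ENSMUSG00000031734.14, GRCm39 chromosome 8, 92525153 to 92528695, minus strand). It held 36.1, 32.1, 30.8 and 40.3 CPM in CDS knockouts and 38.9, 34.3, 41.5 and 37.5 CPM in CDS controls. In PAS knockouts it held 33.6, 36.1, 31.9 and 31.7 CPM and in PAS controls 38.1, 33.1 and 34.9 CPM. Both knockout means were below their control means and the values overlapped in both lines. The log2 changes were -0.13 ± 0.08 and -0.09 ± 0.09 (SE), and their mean over the lines was -0.11 ± 0.06 (edgeR, unadjusted p = 0.0727, adjusted p = 1). In that averaged comparison 0 of 8 markers and 0.0789% of all genes were called.

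Cited1 codes for a transcriptional co-regulator that binds the CBP and p300 acetyltransferases and lies on the X chromosome (ENSMUSG00000051159.17, GRCm39, 101290987 to 101295787, minus strand). It held 414, 418, 409 and 455 CPM in CDS knockouts and 489, 528, 420 and 439 CPM in CDS controls. It held 407, 400, 411 and 406 CPM in PAS knockouts and 468, 406 and 380 CPM in PAS controls. PAS knockouts were the most uniform group, with an SD of 4.74 CPM against 45.4 in their controls. In CDS knockouts the log2 change of -0.14 ± 0.07 (SE) corresponded to 0.904 of control, with an interval from 0.821 to 0.997, and had an unadjusted p of 0.0434 and an adjusted p of 1 by edgeR. Over 24 alternatives the change ran from -0.19 to -0.06, with 0 called and 0 of opposite sign. With library sizes taken from cardiomyocyte markers it was -0.06, without CDS control 2 -0.08, and without CDS control 3 -0.19. Cardiomyocyte markers had negative log2 changes in CDS knockouts in 9 of 10 cases, ventricle markers in 4 of 4 and endothelial markers in 8 of 9, 0 of them past the test. Changes were positive for 6 of 6 mesenchyme markers and 7 of 7 pacemaker and atrioventricular canal markers. They were also positive for 5 of 6 neuronal markers and 4 of 4 tested markers of choroid plexus, liver and yolk sac, 0 of them past the test. Summed levels in CDS knockouts and CDS controls were 32000 to 35500 and 34400 to 37600 CPM for cardiomyocyte markers, 5750 to 6700 and 6480 to 7210 CPM for ventricle markers, and 1700 to 1810 and 1840 to 1940 CPM for endothelial markers. Around group means Cited1 moved with the endothelial sum (r = 0.76 over 15 libraries), its largest correlation with a marker list and no test. The part of these cells in the value of Cited1 was not tested. In PAS knockouts Cited1 changed by -0.04 ± 0.07 (SE), and the PAS line differed from the CDS line by -0.11 ± 0.05 (edgeR, adjusted p = 0.231), a difference that passed with no filter on low counts (adjusted p = 0.00258).

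Sema3a codes for a secreted guidance cue read by neuropilin and plexin receptors, known in the heart for patterning its nerves (ENSMUSG00000028883.20, GRCm39 chromosome 5, 13175381 to 13652533, plus strand). It held 82.9, 89.3, 86.7 and 91.2 CPM in CDS knockouts and 89.1, 99.3, 87.8 and 96.5 CPM in CDS controls. It held 96.5, 96.8, 89.1 and 97.7 CPM in PAS knockouts and 94.9, 92 and 80.7 CPM in PAS controls. Its spread was the smallest of the 8 genes, with a highest library at 1.23 times the lowest. The changes pointed in opposite directions, -0.09 ± 0.05 in CDS and 0.09 ± 0.06 in PAS knockouts (log2, SE), and the difference between them was 0.18 ± 0.08 with an unadjusted p of 0.0247 and an adjusted p of 0.995 by edgeR. Of all genes 0.00493% were called for that difference, and 0 of the 8 markers.

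Cpne5 codes for a copine, a calcium-dependent membrane-binding protein (ENSMUSG00000024008.17, GRCm39 chromosome 17, 29374530 to 29457141, minus strand). It held 14.8, 17.6, 27.1 and 15.9 CPM in CDS knockouts and 14.4, 15.7, 19 and 17.5 CPM in CDS controls. It held 21.9, 19.3, 18.7 and 20.1 CPM in PAS knockouts and 19.3, 23.2 and 21.8 CPM in PAS controls. CDS knockout 3 was the highest library, and all 3 PAS controls were above all 4 CDS controls, as was the case for 4.3% of all genes. The log2 change was 0.17 ± 0.16 (SE) in CDS and -0.10 ± 0.18 in PAS knockouts, and the difference between controls was 0.36 ± 0.18 (edgeR, adjusted p = 0.558). Without CDS knockout 3 the change in CDS knockouts was -0.05, and that library had the highest sum of neuronal markers, 27.7 CPM against 10.8 to 18.3 CPM in the other 14. Around group means Cpne5 moved with the neuronal sum (r = 0.90) and with pacemaker and atrioventricular canal markers (r = 0.80) over the 15 libraries. It ran against cardiomyocyte markers (r = -0.82) and ventricle markers (r = -0.80). These were its largest correlations with the marker lists and are no test. CDS knockout 3 also had the highest pacemaker and atrioventricular canal sum (224 CPM). Its cardiomyocyte and ventricle sums (32000 and 5750 CPM) were the lowest. How far these correlations rest on that library was not tested. The part of such cells in its level was not tested. In tissue RNA, fewer cells of a type and less RNA per cell cannot be told apart, for this gene and for the others. The difference between the lines, 0.22 ± 0.12 (SE), passed without CDS knockout 3 (0.33; edgeR, adjusted p = 0.00589).

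**Figure D3:**
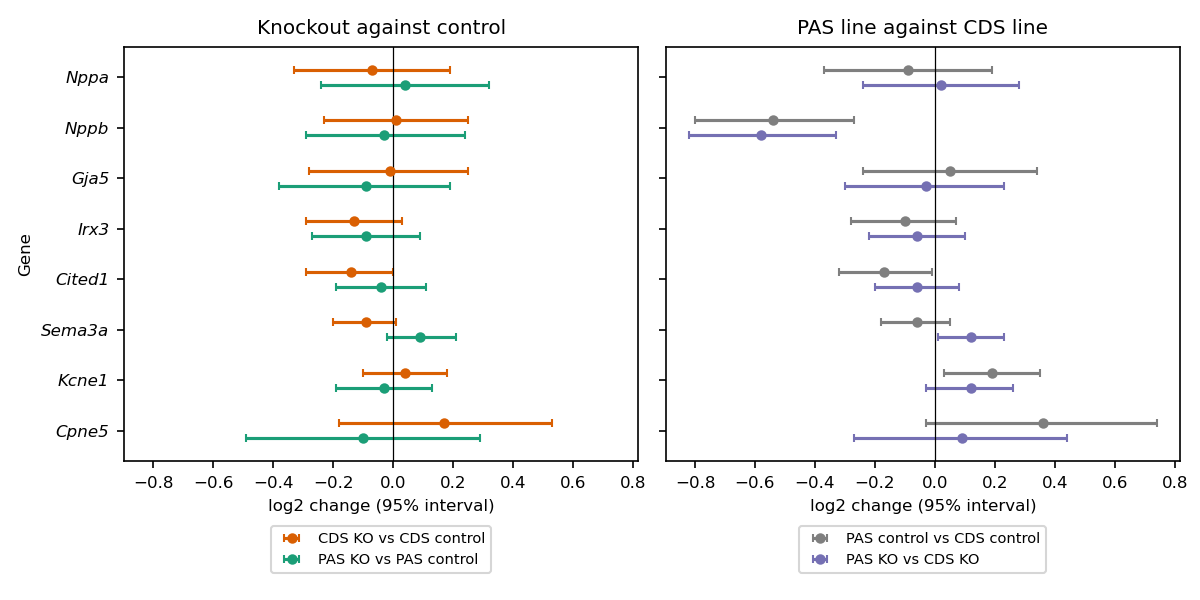
Log2 change (points, horizontal axis) with its 95% interval (bars) for each of the 8 genes (vertical axis), left for knockout against control in each line and right for the PAS line against the CDS line, separately for controls and knockouts. Every interval on the left crosses 0 but that of Cited1 in CDS knockouts, which ends at 0.997-fold, and on the right Nppb stands at -0.54 and -0.58 while Nppa stands at -0.09 and 0.02.

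After group means were removed, the 8 markers had no common direction over libraries: 13 of 28 pairs were positively correlated over the 15, with r from -0.63 to 0.62 and a median of -0.01. Nppa moved most closely with Gja5 (r = 0.62) and with Cited1 (r = 0.52), and Cited1 with Sema3a (r = 0.60). Nppa and its neighbour Nppb gave r = 0.20. Kcne1 ran against Nppb (r = -0.63) and Sema3a (r = -0.58). These values describe 15 libraries that share normalisation, and are no test.

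Among 10652 genes of at least 5 CPM, Jmjd1c was among the most alike to Nppa over all 15 libraries by Pearson correlation (r = 0.867). For Nppb the most alike were Lamtor2 (0.901) and Chchd7 (0.896), for Gja5 Fech (0.821) and Myoz1 (0.813), and for Irx3 Bcl6b (0.77) and Taco1 (0.765). Those of Cited1 were Ndufa8 (0.9) and Gmpr (0.885), of Sema3a Sec22b (0.838) and Wdr11 (0.82), of Kcne1 Masp1 (0.896) and Rfc5 (0.83), and of Cpne5 Enpp1 (0.919) and Arhgap28 (0.917). Fech codes for the last enzyme of haem synthesis. The 8 markers themselves were left out of the genes compared. The highest of 10652 correlations over 15 libraries is high for any gene, so these are descriptions.

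Genes around the markers were counted from lists. Of the signals that drive trabeculation, Notch, neuregulin, ephrin, BMP10 and matrix genes, 21 of 21 were tested and 0 passed in either knockout, with medians of 0 in CDS and 0.02 in PAS knockouts. The most abundant were the matrix proteoglycan gene Vcan, at 1800 CPM with log2 changes of 0.04 ± 0.13 and -0.01 ± 0.14 (SE, CDS and PAS), and Fkbp1a, which binds calcium release channels and receptors, at 370 CPM with -0.02 ± 0.05 and 0.02 ± 0.05. Of 12 transcription factors known to act on the marker genes 0 passed, with medians of 0.02 and -0.01. The most abundant of these, Tbx20, gave 0.14 ± 0.10 and -0.03 ± 0.10, and Gata4 gave 0.04 ± 0.04 and 0.00 ± 0.05. Of 35 relatives and binding partners (other natriuretic peptide genes and receptors, connexins, Iroquois and Cited factors, semaphorins and their receptors, potassium channel subunits, copines) 33 were tested and 0 passed in either knockout. Their medians were -0.05 in CDS and 0.01 in PAS knockouts, and the most abundant were the connexin gene Gja1, at 535 CPM with -0.06 ± 0.08 and 0.03 ± 0.09, and the plexin gene Plxnd1, at 516 CPM with -0.15 ± 0.10 and 0.03 ± 0.11. Nppc, the C-type natriuretic peptide gene, and Kcne4 had 96 and 94 counts over all libraries and were not tested.

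Between the lines 2 of those 33 relatives were called, against 3.42% of all genes. Cited2, a relative of Cited1, was lower in the PAS line (-0.15 ± 0.03; edgeR, adjusted p = 0.0131) and Sema3d, a relative of Sema3a, was higher (0.15 ± 0.04; adjusted p = 0.0375). The libraries of the lines overlapped for both. The 3 tested natriuretic peptide receptor genes were not among the calls.

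Of 6 other genes known from trabecular muscle 0 passed in either knockout, with medians of -0.03 in CDS and 0.06 in PAS knockouts. The guidance cue gene Slit2, at 417 CPM, gave -0.10 ± 0.05 and 0.08 ± 0.06 (SE). Bmp10, at 288 CPM, codes for a growth factor that sustains trabecular growth and is also counted among the signals and the atrial markers. It was lower in 4 of 4 CDS knockouts than in any CDS control, as were 1.32% of all genes, at -0.17 ± 0.07 with an unadjusted p of 0.0313 and an adjusted p of 1 by edgeR, and stood at 0.01 ± 0.08 in PAS knockouts. Of 5 compact layer markers 0 passed, with medians of -0.03 and -0.02, and the cyclin gene Ccnd2, at 549 CPM, gave -0.12 ± 0.06 and -0.11 ± 0.07.

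**Figure D4:**
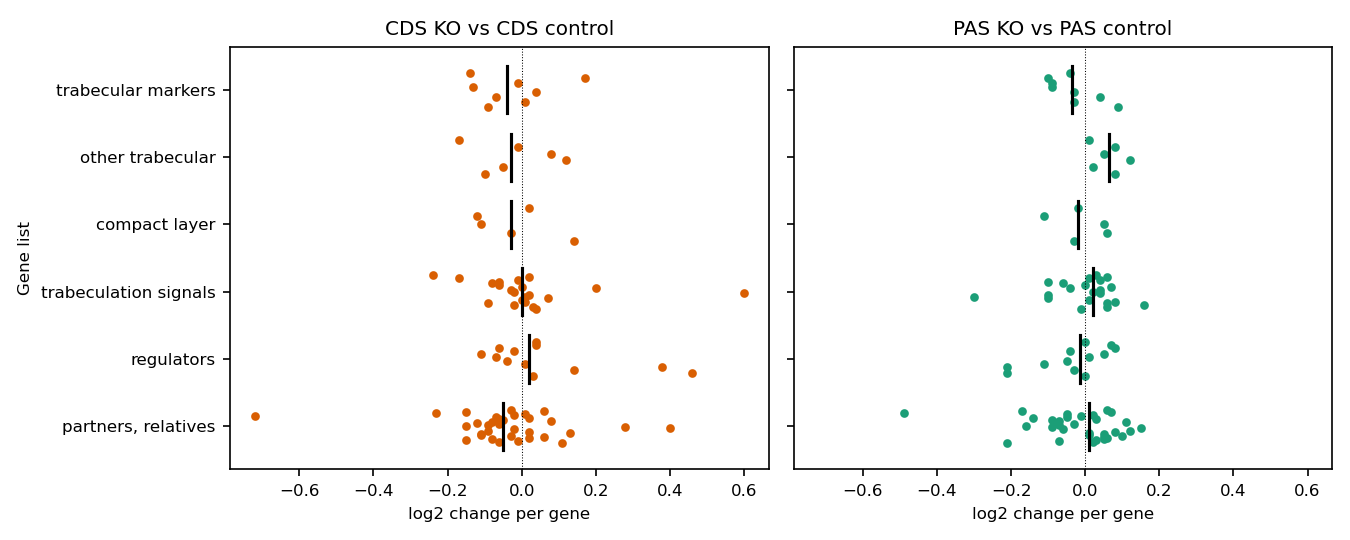
Log2 change of each gene (points, horizontal axis) in CDS knockouts (left) and PAS knockouts (right) for the 8 trabecular markers and 5 lists of related genes (vertical axis), with the median of each list as a bar. All medians lie between -0.05 and 0.06.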

How the data were processed

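Gene counts of 15 libraries were analysed. The deposited files hold raw counts, made by the authors with featureCounts 2.1.1 over exons of GENCODE mouse release 37 (GRCm39) in paired-end mode with no strand option, per the file headers, so antisense fragments are not told apart. Per the submitters' processing notes, the aligners HISAT2 2.2.1 and STAR 2.7.11b were used, beside FastQC, fastp and DESeq2; which aligner made these files is not given in the sources used here. Names were matched by identifier to GENCODE release 21 (51487 of 78317).

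Here, edgeR 4.0.16 (filterByExpr with a minimum count of 10, TMM, robust quasi-likelihood fit) was fitted to all 15 libraries with a mean per group, leaving 11 residual degrees of freedom and 20269 genes. Calls had a Benjamini-Hochberg adjusted p under 0.05. Levels are CPM after TMM; SEs were derived from F. DESeq2 1.42.0 and limma 3.58.1 were alternatives, and the closing section gives their effect. Correlations used log2(CPM + 0.5). The biological coefficient of variation was 7.44%, and depth limits the precision of low genes. The code was tested on simulated data. The design text calls the replicates biological, and over 21 replicate pairs the chi-square per degree of freedom was at least 3.11, so none was merged. It was 53.41, 46.29 and 43.04 for CDS knockout 3 against CDS knockouts 1, 2 and 4, and at most 12.12 for any other pair. All markers were named, plus from each related list up to 4 called genes, or else its 2 most abundant, and the 2 most alike genes per marker; genes near Nppb, Atf4 and Bmp10 in CDS knockouts were named outside this rule, with their values seen, as were marker genes of other cell types. The 8 genes and the lists were chosen with earlier results of these data known. Some genes that these rules select are not reported here.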

Additional observations from a re-analysis of the deposited data

Results flagged for a closer look

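In 24 groups of 4 libraries (8 genes in 3 groups; the PAS controls, with 3, were not tested for this) the library farthest from the rest was set against the group's range, and 4 exceeded Dixon's critical value at the 95% level. Chance gives about 1 in 20 such groups. Nppb in PAS knockout 3 stood at 149 CPM, with 116 to 120 CPM in the other PAS knockouts (gap over range 0.872). It was still below the lowest CDS library. Gja5 stood at 318 CPM in CDS knockout 3, with 216 to 229 CPM in the others (0.869), and at 263 CPM in PAS knockout 2, with 231 to 235 CPM in the others (0.86). Sema3a stood at 89.1 CPM in PAS knockout 3, with 96.5 to 97.7 CPM in the others (0.86).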

How the results depend on the processing

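In the 4 knockout comparisons (each line, their difference and their mean), 0 of 752 alternative values for the 8 markers passed the test. Over all comparisons 100 of 1296 alternative values had the opposite sign, all for changes of at most 0.17 (log2). Leaving out 1 library gave 10 to 14 genes called in CDS knockouts, 2 to 3 in PAS knockouts, 1 to 2 for their difference, 11 to 16 for their mean, 15 to 43 between controls, 400 to 779 between lines (1 to 2 markers) and 65 to 306 between knockout groups (0 to 1 markers). Without a low-count filter these were 31, 7, 3, 28, 201 (1 marker), 1108 (3 markers) and 500. DESeq2 called 20, 7, 2, 101 (1 marker) and 482 for CDS, PAS, difference, controls and knockout groups, and limma-voom 2 for the difference. The atrial covariate gave 47 between controls and 409 (0 markers) between knockout groups. Library size from cardiomyocyte markers gave 6 in CDS knockouts and 543 between knockout groups. Fitting only the groups compared gave 1 in PAS knockouts, 10 between controls and 0 markers between knockout groups. Without CDS knockouts 3 and 4, there were 10 for the mean, 309 (2 markers) between lines and 46 (0 markers) between knockout groups. The cause of these moves was not tested. A replicate block gave 8, 1, 1 and 8 genes and 0 markers. Same-numbered libraries correlated at -0.05 to 0.09 (CDS) and -0.32 to 0.03 (PAS), and 0 of 7 correlated best with its own number. With so few libraries this cannot show whether the numbers pair them, and the labels give no litters. The block could not be fitted between lines, and a fit of the compared groups equals the reported one for the difference, mean and lines.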
